A study of Mus musculus with 8 samples.

Results

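The integrin and laminin subunits were taken by name. Array names made of Itga or Itgb with a subunit number or letter, or of Lama, Lamb or Lamc with a number, gave 37 of the 37074 gene names on the array. These genes were carried by 94 of the 56605 probes that are not controls, and the probe with the highest mean signal stood for each gene. The 37 genes were 8 leukocyte integrins (*Itgal*, *Itgam*, *Itgax*, *Itgad*, *Itgae*, *Itga4*, *Itgb2* and *Itgb7*), 18 matrix integrins and 11 laminins. The naming rule used no measured difference between the groups, although earlier results of these data were known when the subunits were chosen.

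Gene expression was measured in BAT of 4 Co mice and 4 Pg mice, all C57BL/6J males aged 12 weeks, with 1 one-color Agilent array per sample. Co mice received saline into a vein, and Pg mice received sonicated *Porphyromonas gingivalis*, a bacterium of periodontal disease, in 100 μL of saline. The labels print the dose as 108 CFU, where the methods of the study set the 8 as an exponent. Tissue was collected once, 18 h after the injection, so the data hold no time course and no live infection.

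All 8 arrays shared 1 slide and 1 scan, Co mice filling row 1 of the slide and Pg mice row 2, so the slide row cannot be told apart from the treatment. Probes well above background numbered 34760 to 35831 in Co mice and 31132 to 34063 in Pg mice, and log2 signals of any pair of arrays correlated at a Pearson r of 0.986 to 0.994 across probes. On these arrays, the labelled tissue did not match one of its defining markers. The probe of *Ucp1*, the uncoupling protein of brown adipocytes, was well above background on none of the arrays, like that of *Elovl3*, while *Cidea*, *Dio2*, *Ppargc1a* and *Prdm16* were detected on all 8. By quantitative PCR, the paper did measure *Ucp1* in BAT and reported it lower in Pg mice. All 6 skeletal muscle markers were also detected on all 8 arrays, and one of them, the fast-fiber myosin gene *Myh4*, ranged from 13.38 to 16.97 among Co mice and from 11.38 to 17.07 among Pg mice on the log2 scale. The term BAT below is that of the labels.

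Integrins are receptors made of an α and a β chain that hold cells to the extracellular matrix or to other cells and signal in both directions across the membrane. Those with the *Itgb2* or *Itgb7* chain, and those with *Itga4*, serve white blood cells in adhesion to the vessel wall, whereas the others mostly bind collagens, laminins, fibronectin or vitronectin. Laminins are cross-shaped trimers of an α, a β and a γ chain that build the basement membrane around adipocytes, muscle fibers and vessels, where integrins and dystroglycan receive them.

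The 60-base probes below carry the values on which the results turn, and their sequences show which stretch of each transcript was read. Coordinates are those of the array files (mouse build mm9). The first 30 bases are printed, apart from the second *Itga9* probe, which is printed whole because it crosses an exon junction and codes for the motif that α chains carry just inside the membrane (a glycine, a pair of phenylalanines and a pair of basic residues, in capitals). Codons of this motif occurred in 3 of the 47 α chain probes and in 6 of the 56605 probes of the array (0.0106%). Capitals in the *Itgam* probe mark a run of 10 CA repeats. Runs of at least 8 such units, on either strand, occurred in 113 of the 56605 probes (0.2%) and in 1 of the 94 subunit probes.
*Itga9*, brightest, base 4779 of NM_133721, chr9:118807900-118807959, plus strand: taccttcagctttgtgtagccaaaaaagcc
*Itga9*, second, base 3220 of NM_133721, chr9:118796991-118806400, plus strand: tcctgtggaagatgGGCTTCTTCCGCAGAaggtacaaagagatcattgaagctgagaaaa
*Itga6*, brightest, base 383 of ENSMUST00000139760, chr2:71690633-71690692, plus strand: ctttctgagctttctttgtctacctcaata
*Itga6*, second, base 4289 of NM_008397, chr2:71694756-71694815, plus strand: gagaatgagaacctgggaggtcttgttgtt
*Itga6*, the third, base 5684 of NM_008397, chr2:71696151-71696210, plus strand: catctcaagtcaagtcactggtctgtttgc
*Itgam*, brightest, base 4431 of NM_001082960, chr7:135261755-135261814, plus strand: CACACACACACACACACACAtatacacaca
*Itgam*, second, base 270 of NM_008401, chr7:135212140-135212199, plus strand: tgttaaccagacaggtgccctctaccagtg
*Itgb6*, brightest, base 2445 of NM_021359, chr2:60438632-60443247, minus strand: aaggaagttgctaaatttgaagcagaacgc
*Itgb6*, second, base 838 of NM_021359, chr2:60492788-60492847, minus strand: tctgcttacctacatttggattcaagcaca
*Lamb1*, brightest, base 5684 of NM_008482, chr12:32014411-32014470, plus strand: ccgaggcagtcatctacaaataacccatca
*Lamb1*, the third, base 1039 of NM_008482, chr12:31967514-31967573, plus strand: aagtactattacgctgtttatgatatggtg

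Most subunits differed little between Co and Pg mice. Of the 37 genes, 33 were tested, since their brightest probe was well above background on at least 4 arrays, and 30 of them were detected on all 8. *Itga2*, *Itgad* and *Lama1* were well above background on no array and *Itgb8* on 1 Co array. At a false discovery rate (q) under 0.1, *Itga9* was upregulated in Pg mice and no subunit was downregulated, where 6.23% of the 22320 genes tested passed, 2.05% upward and 4.18% downward. None of the 33 was a DEG (q under 0.1 with a fold change over 1.5), against 1.18% of all genes. The test was limma's moderated test with Benjamini-Hochberg adjustment over 33819 probes, and at an unadjusted p under 0.05 it gave 5 subunits higher and 1 lower in Pg mice, beside 20.3% of all genes in either direction. In bulk tissue, a change in the number of cells of a type and a change in RNA per cell cannot be told apart.

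The fitted log2 fold change (Pg minus Co) was above 0 in 24 of the 33 subunits, where 47.2% of all genes were above 0, and in 19 of the 33 when all tested probes of a gene were averaged. Its median was 0.37 for the 7 leukocyte integrins tested, 0.07 for the 16 matrix integrins, 0.09 for the 10 laminins and -0.01 for all genes. With that average, the matrix integrin median was below 0 (-0.10). The signals of both groups did not overlap for *Itga9* and *Lama5*, with Pg above, and for *Itga2b*, with Pg below, which is 3 of 33 beside 14.3% of all genes. *Itga2b* was well above background on the 4 Co arrays only, and so passed the filter through the group where it is high. Its gap is therefore no support for a difference. The plot of the tested subunits shows that leukocyte integrins were spread most among Pg mice.

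**Figure D1:**
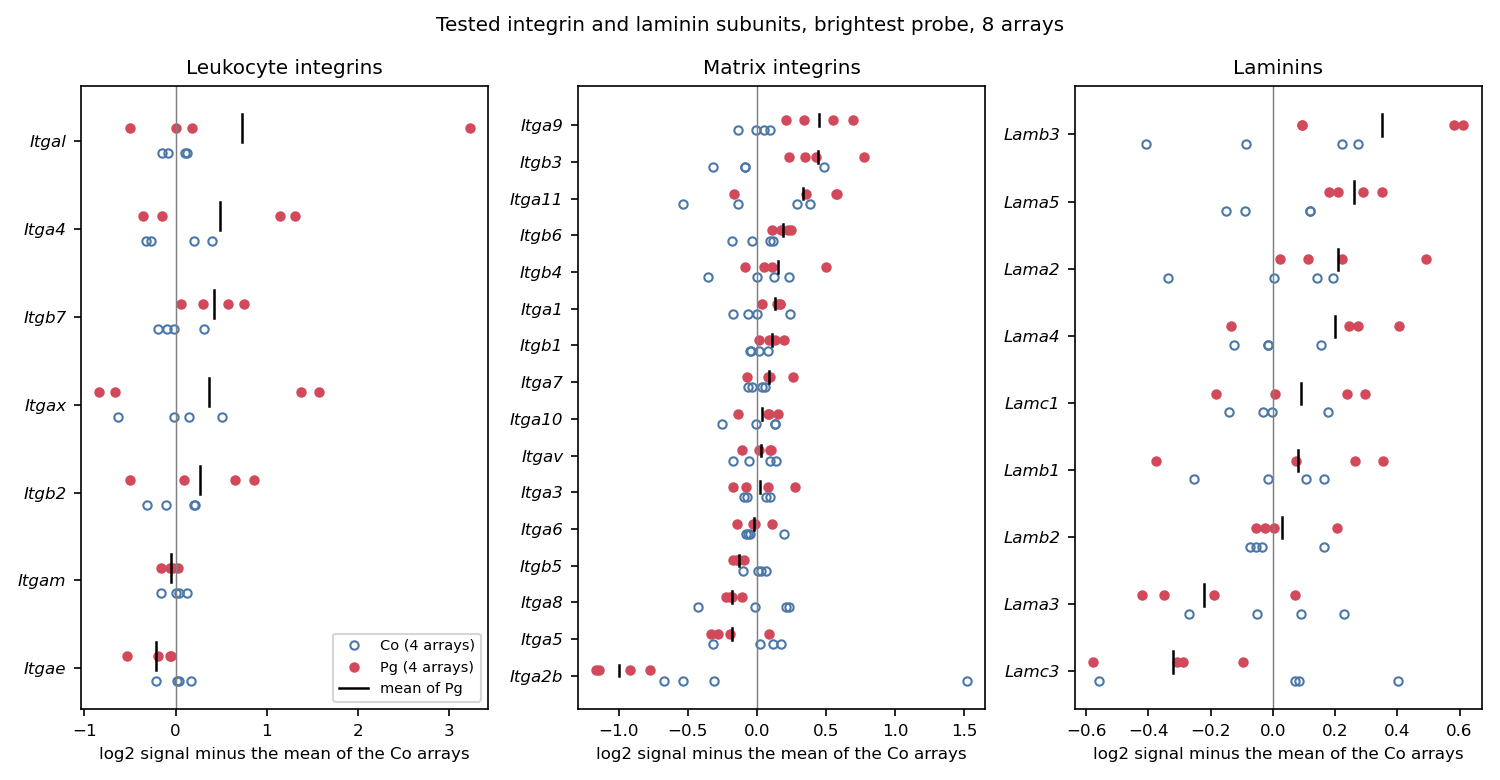
Each row is 1 of 32 of the 33 tested subunits, and each point is the log2 signal of 1 array minus the mean of the 4 Co arrays (open blue, Co; filled red, Pg; black bar, mean of Pg). Pg points of *Itga9* and *Lama5* all lie to the right of the Co points, and 1 Pg array carries the mean of *Itgal*.

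*Itga9* encodes the α chain of a receptor for tenascin C, osteopontin and VCAM-1 that is known from lymphatic endothelium and muscle. Log2 signals were 9.17, 9.40, 9.36 and 9.30 in Co mice and 9.65, 10, 9.52 and 9.86 in Pg mice. Every Pg array lay above every Co array, by 0.45 ± 0.11 on average (SE, 1.37-fold, limma q = 0.0788). The second probe, which reads the motif sequence printed above, gave 6.77, 6.77, 6.66 and 6.60 in Co mice and 6.94, 7.04, 6.85 and 6.92 in Pg mice. Its groups did not overlap either (0.24 ± 0.07, q = 0.104). Among Pg mice, Pg2 and Pg4 were highest and Pg3 lowest on the brightest probe, as in the macrophage, pan-leukocyte and fibroblast marker medians described below, and the part of these cells in the difference was not tested. The call of *Itga9* was kept without array Pg3 (q = 0.0685) and lost when any of the other 7 arrays was left out, with fold changes of 0.37 to 0.53.

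Among the laminin-binding integrins, *Itga6* gave different results by probe. Its brightest probe, filed under an Ensembl transcript, read 14.73, 14.47, 14.49 and 14.46 in Co mice and 14.52, 14.39, 14.65 and 14.51 in Pg mice, which overlapped (-0.02 ± 0.09, q = 0.908). The second probe, on the RefSeq mRNA, read 11.68, 11.96, 11.80 and 11.84 in Co mice and 12.51, 12.30, 12.12 and 12.39 in Pg mice, so that all Pg arrays were higher (0.51 ± 0.10, q = 0.0568). On the same mRNA, the third probe also separated the groups, with 10.66 to 10.99 in Co and 11 to 11.54 in Pg mice (0.41 ± 0.13, q = 0.118). The call of the second probe was lost under 9 of 17 alternatives, among them the replicate block (q = 0.131) and 7 of the 8 left-out arrays (kept without Pg3), with fold changes of 0.42 to 0.58. *Itga6* is expressed by endothelial cells, whose 6 markers, all detected on all arrays, had fitted differences above 0 in 4 and below 0 in 2. *Kdr*, the VEGF receptor of endothelium, was upregulated (0.57 ± 0.11, q = 0.0573, a call kept among the left-out arrays only without Pg3). *Cldn5* (0.41 ± 0.21, q = 0.283), *Cdh5* (0.13 ± 0.11, q = 0.539) and *Emcn* (0.10 ± 0.11, q = 0.645) did not pass the test. *Pecam1*, the CD31 gene, had all Pg arrays below all Co arrays without passing the test (-0.20 ± 0.07, q = 0.151) and *Tek* differed by -0.14 ± 0.10 (q = 0.441). The marker medians on Pg1 to Pg4 were 0.00, 0.09, 0.00 and 0.21, with summed signals of 9710 to 12600 in Co and 11900 to 13400 in Pg mice (7200 to 9760 and 8220 to 9160 without *Kdr*), and the part of endothelial cells in the *Itga6* difference was not tested.

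*Itga7*, the laminin receptor chain of muscle fibers, was also split. Its brightest probe read 14.16, 14.19, 14.26 and 14.28 in Co mice and 14.30, 14.32, 14.15 and 14.48 in Pg mice (0.09 ± 0.08, q = 0.541). The second probe, nearer the 5′ end of the same mRNA, read 10.35, 10.30, 10.43 and 10.44 in Co mice and 10.03, 10.16, 9.91 and 10.06 in Pg mice. All Pg arrays were below all Co arrays on this probe (-0.34 ± 0.07, q = 0.0596), whereas the brightest overlapped. In the authors' own normalized values the difference was -0.16 (q = 0.23), and the call was lost under 9 of 17 alternatives, including 6 of the 8 left-out arrays (kept without Pg2 or Pg3). Of the 6 skeletal muscle markers, 5 had a fitted difference below 0 and none passed the test, with marker medians of -0.18, 0.06, 0.00 and -0.07 on Pg1 to Pg4 and summed signals of 1180000 to 1300000 in Co and 1130000 to 1340000 in Pg mice. *Ckm*, the muscle creatine kinase, had all Pg arrays below all Co arrays (-0.15 ± 0.06, q = 0.186), and the part of muscle in the *Itga7* values was not tested. *Itga3*, of epithelial and vascular basement membranes, lay between 7.69 and 7.88 in Co and between 7.61 and 8.06 in Pg mice, and *Itgb4*, the hemidesmosome chain that pairs with *Itga6*, lay between 9.36 and 9.95 in Co and between 9.63 and 10.22 in Pg mice. Neither differed beyond its spread (q = 0.911 and q = 0.63).

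**Figure D2:**
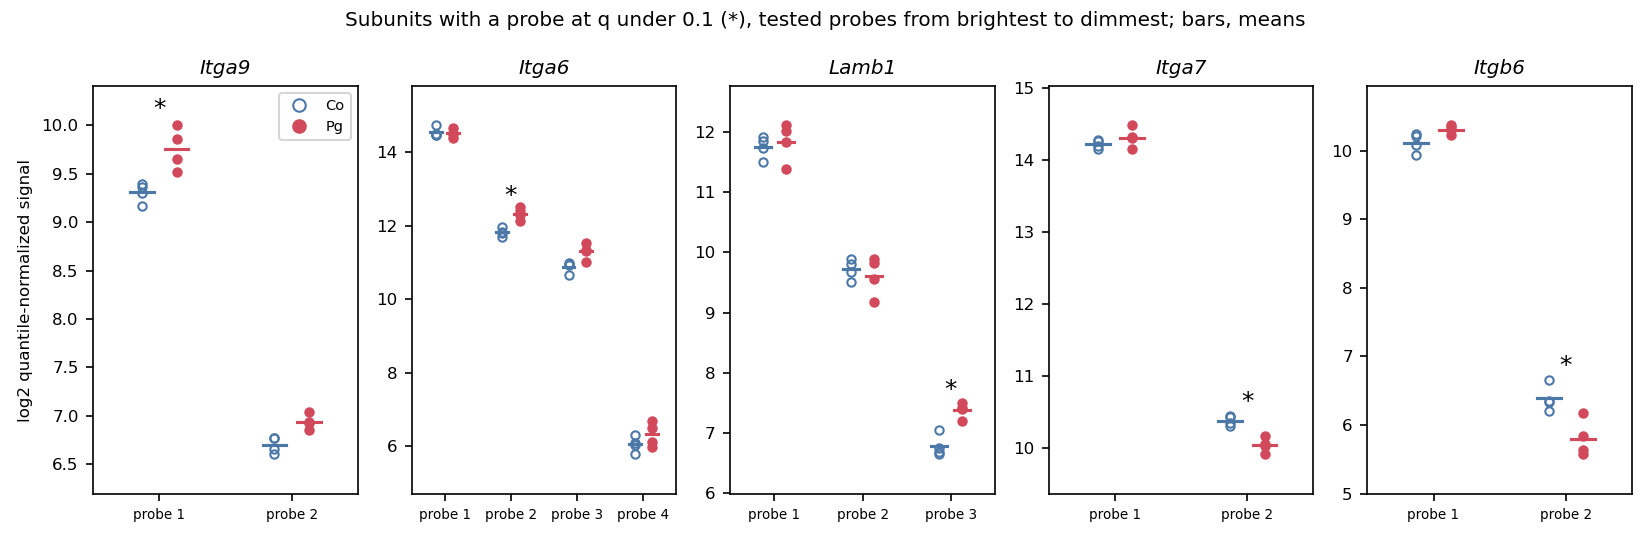
Log2 signals by array (open blue, Co; filled red, Pg; bars, means of 4 arrays) for the tested probes of the 5 subunits with a probe at q under 0.1 (asterisk), ordered from brightest to dimmest. Only in *Itga9* is the called probe the brightest one, and in *Itga7* and *Itgb6* the called probe is lower in Pg mice while the mean of the brightest is higher.

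*Itgb1* encodes the shared β chain of most matrix integrins. Its brightest probe read 13.90, 13.89, 13.96 and 14.02 in Co mice and 13.96, 14.14, 14.03 and 14.07 in Pg mice, which overlapped (0.11 ± 0.06, q = 0.32). Both other probes had lower means in Pg mice (-0.17 ± 0.06, q = 0.176, and -0.27 ± 0.10, q = 0.164).

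Fibronectin and vitronectin receptors that bind the RGD motif showed no called change on their brightest probe. *Itga5*, the fibronectin receptor chain, read 8.86, 9.35, 9.20 and 9.29 in Co mice and 8.84, 9.26, 8.98 and 8.89 in Pg mice (-0.18 ± 0.13, q = 0.459). *Itgav*, the common α chain of vitronectin receptors, read 12.10, 12.22, 12.37 and 12.41 in Co mice and 12.17, 12.29, 12.37 and 12.38 in Pg mice (0.03 ± 0.09, q = 0.881). The groups of both genes overlapped over most of their range. *Itgb3*, its partner in platelets and activated endothelium, read 6.99, 7.22, 7.79 and 7.22 in Co mice and 7.73, 8.08, 7.54 and 7.65 in Pg mice. Co3 alone reached into the Pg range (0.44 ± 0.18, q = 0.204). *Itgb5*, the vitronectin receptor chain known from adipocytes and macrophages, lay between 13.53 and 13.70 in Co and between 13.46 and 13.54 in Pg mice, which overlapped only at the edge (-0.13 ± 0.06, q = 0.209).

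*Itgb6* pairs with *Itgav* in epithelia and releases latent TGF-β. Its brightest probe, across an exon junction and the more 3′ on its mRNA, lay between 9.94 and 10.24 in Co and between 10.23 and 10.37 in Pg mice (0.19 ± 0.08, q = 0.206). The second probe, 5′ on the same mRNA, read 6.34, 6.35, 6.20 and 6.66 in Co mice and 6.18, 5.63, 5.84 and 5.57 in Pg mice, and every Pg array was below every Co array (-0.58 ± 0.16, q = 0.0894). The call was lost under 12 of 16 alternatives, such as scaling to the 75th percentile (q = 0.163) and 7 of the 8 left-out arrays (kept without Pg1), and the difference was -0.31 when the processed signal was replaced by the mean signal after normexp (offset 50). *Itga8*, the nephronectin receptor chain, read 6.90, 7.56, 7.31 and 7.54 in Co mice and 7.22, 7.15, 7.13 and 7.10 in Pg mice, where the Pg arrays lay close together inside the Co range (-0.18 ± 0.14, q = 0.501).

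The collagen-binding chains overlapped between the groups. *Itga11*, a collagen receptor of fibroblasts, lay between 9.47 and 10.39 in Co and between 9.84 and 10.59 in Pg mice (0.33 ± 0.25, q = 0.456). For *Itga1*, all 5 tested probes had means above those of Co mice, by 0.05 to 0.21, and none passed the test (brightest, 0.13 ± 0.09, q = 0.438). *Itga10*, of cartilage, gave 0.04 ± 0.11 on its brightest probe (q = 0.831) and -0.47 ± 0.20 on the other (q = 0.21).

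*Itga2b*, the platelet fibrinogen receptor chain, was well above background on all 4 Co arrays and on none of the Pg arrays. The lowest log2 signal well above background was 3.67 to 4.01 on Co and 4.06 to 4.72 on Pg arrays, so that Pg arrays needed a higher signal to be called detected. Its signals were 4.28, 4.64, 4.42 and 6.47 in Co mice and 4.18, 3.81, 4.03 and 3.79 in Pg mice, and those of Pg1 and Pg3 were above the lowest detected signal of every Co array. The difference is a bound, at least 1.39-fold higher in Co mice, and did not pass the test (limma q = 0.242). Array Co4 stood alone. Without it, the Co mean of 4.45 was under the mean Pg detection limit of 4.48, so no bound was left. Of the 5 platelet markers, *Gp1ba* was detected on no array, and none of the 4 tested passed, with summed signals of 1640 to 2720 in Co and 1290 to 2800 in Pg mice, mostly from *Pf4* (83.5% to 93.6%).

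No laminin chain passed the test on its brightest probe. *Lama5*, the broadly expressed α chain of mature basement membranes, read 10.59, 10.86, 10.65 and 10.86 in Co mice and 10.92, 10.95, 11.09 and 11.03 in Pg mice. Every Pg array exceeded every Co array, but the difference of 0.26 ± 0.08 had a q of 0.132. Its q was 0.0663 for the mean signal after normexp (offset 50), and 0.0948 for the median signal with no background subtracted.

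*Lama2*, the α chain of the muscle basement membrane, read 12.63, 12.15, 12.49 and 12.68 in Co mice and 12.51, 12.98, 12.60 and 12.71 in Pg mice (0.21 ± 0.15, q = 0.427). *Lama4*, the endothelial α chain, read 10.15, 10.26, 10.43 and 10.26 in Co mice and 10.52, 10.55, 10.14 and 10.68 in Pg mice (0.20 ± 0.12, q = 0.368). Pg3 was the lowest array for *Lama4* and the other 3 Pg arrays were above all Co arrays, while the groups of *Lama2* overlapped. *Lama3*, the epithelial α chain, read 6.02, 6.38, 6.24 and 6.52 in Co mice and 5.87, 6.10, 6.36 and 5.94 in Pg mice, also with overlap (-0.22 ± 0.14, q = 0.382).

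*Lamb1* encodes the β chain found in most laminins outside the synapse. Its brightest probe read 11.74, 11.50, 11.86 and 11.92 in Co mice and 11.83, 12.11, 11.38 and 12.02 in Pg mice (0.08 ± 0.17, q = 0.806). A dimmer probe far 5′ on the same mRNA, the third by brightness, read 6.68, 7.04, 6.75 and 6.64 in Co mice and 7.50, 7.40, 7.20 and 7.42 in Pg mice, and Pg was higher on every array (0.60 ± 0.11, 1.52-fold, q = 0.0507). This was the one DEG among the 66 tested probes of all subunits, where 1.61% of all tested probes were DEGs. It was 0.13 (q = 0.55) in the authors' own normalized values, and its call was also lost without Co3, Co4 or Pg1 and with the replicate block (q = 0.122).

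The other laminin chains overlapped between Co and Pg mice. *Lamb2*, the β chain of the neuromuscular synapse, read 11.83, 11.79, 11.81 and 12.03 in Co mice and 11.87, 12.07, 11.81 and 11.84 in Pg mice (0.03 ± 0.08, q = 0.835). *Lamc1*, the γ chain of nearly all laminins, read 13.06, 12.95, 13.09 and 13.27 in Co mice and 13.10, 13.39, 12.91 and 13.33 in Pg mice (0.09 ± 0.12, q = 0.678), and a second probe on nearly the same bases gave 0.12 ± 0.14. *Lamb3*, the β chain of the epithelial anchoring laminin, read 8.69, 8.38, 8.74 and 8.06 in Co mice and 9.05, 8.56, 9.08 and 8.56 in Pg mice, with the same sign on its 3 probes (brightest, 0.35 ± 0.19, q = 0.326). For *Lamc3*, detected on all Co and 3 Pg arrays, the difference was -0.32 ± 0.20 (q = 0.387).

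Most leukocyte integrins varied more among Pg mice than among Co mice. Of the 7 tested, 4 had a Pg SD more than 2 times their Co SD, beside 18.5% of all genes, and the median SD was 0.61 in Pg and 0.22 in Co mice, where it was 0.13 in both groups over all genes. *Itgb2*, the β chain that *Itgal*, *Itgam* and *Itgax* share, read 7.10, 6.59, 7.12 and 6.80 in Co mice and 6.99, 7.76, 6.40 and 7.55 in Pg mice (0.27 ± 0.29, q = 0.615). *Itga4*, which with *Itgb1* binds VCAM-1, read 5.38, 5.33, 5.86 and 6.05 in Co mice and 5.30, 6.97, 5.51 and 6.80 in Pg mice (0.49 ± 0.41, q = 0.514). Pg2 and Pg4 were above every Co array for both genes, and Pg1 and Pg3 were within or below the Co range.

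*Itgax*, the CD11c chain of dendritic cells and some macrophages, repeated this pattern with 4.18, 4.80, 5.32 and 4.96 in Co mice and 4.15, 6.19, 3.98 and 6.39 in Pg mice. Only Pg2 and Pg4 were well above background among its Pg arrays, and its difference of 0.37 ± 0.60 (q = 0.752) was -0.04 without Pg4. *Itgb7*, which pairs with *Itga4* and *Itgae* on lymphocytes, read 6.87, 6.70, 7.20 and 6.80 in Co mice and 6.95, 7.64, 7.19 and 7.47 in Pg mice (0.42 ± 0.17, q = 0.192). *Itgae*, the CD103 chain that binds E-cadherin, read 7.56, 7.31, 7.69 and 7.54 in Co mice and 7.33, 6.99, 7.48 and 7.46 in Pg mice, with Pg2 as its lowest array (-0.21 ± 0.13, q = 0.381). The median of the 7 leukocyte integrins against the Co mean was -0.07, 0.75, -0.14 and 0.57 on arrays Pg1 to Pg4, and the group difference of 0.37 was 0.08 without Pg2 and 0.15 without Pg4.

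Marker medians of macrophages, pan-leukocyte genes and fibroblasts were also highest on Pg2 and Pg4 and lowest on Pg3 among the Pg arrays. The 6 macrophage markers, all detected on all arrays, had medians of 0.17, 0.83, -0.47 and 0.61 on Pg1 to Pg4 against the Co mean, with summed signals of 3460 to 4930 in Co and 2900 to 8420 in Pg mice. One of them, *Cd14*, read 11.28 on Pg4 and 7.10 to 8.07 elsewhere. The 4 pan-leukocyte markers had medians of 0.27, 0.90, -0.80 and 0.99, and summed signals of 1780 to 2190 in Co and 1870 to 2620 in Pg mice. *Ptprc* made 58.5% to 86.1% of these sums and read 10.80, 10.58, 10.66 and 10.59 on Pg1 to Pg4, without the order of the medians. The others summed to 355 to 574 in Co and 261 to 1090 in Pg mice. The 5 fibroblast markers, all detected on all arrays and none with a q under 0.1, had medians of -0.10, 0.34, -0.36 and 0.42, and the collagen gene *Col3a1* read 13.06, 13.93, 12.91 and 14.21 on Pg1 to Pg4. Medians of the tested neutrophil markers were 0.34, 0.42, 0.25 and 0.43, above 0 on every Pg array, and those of the T and B cell markers were -0.27, 0.23, 0.01 and 0.08. Summed signals of the 6 neutrophil markers were 40000 to 50100 in Co and 47500 to 55000 in Pg mice, of which *Csf3r* alone made 95.5% to 98.9%, and the other 5 summed to 569 to 713 in Co and 601 to 2490 in Pg mice. Those of the 6 T and B cell markers, of which *Cd3g* was detected on no array, were 539 to 655 and 572 to 742, mostly from *Cd3e* (80.1% to 88.7%). None of the 10 macrophage and pan-leukocyte markers, or of the 5 neutrophil and 3 lymphocyte markers tested, passed q under 0.1. At an unadjusted limma p under 0.05, which 20.3% of all genes reached, there were 3 of the 5 neutrophil markers (60%), all higher in Pg mice. None of the macrophage, pan-leukocyte or lymphocyte markers reached it. The marker lists were drawn up with earlier results of these data known, so these counts are no test of the lists. *S100a8*, a neutrophil protein gene, read 8.59, 8.32, 5.18 and 6.76 in Pg mice and 4.56 to 5.33 in Co mice (2.16 ± 0.71, q = 0.132), so Pg1 and Pg2 were the high arrays there. The part of these cells in the integrin values was not tested.

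**Figure D3:**
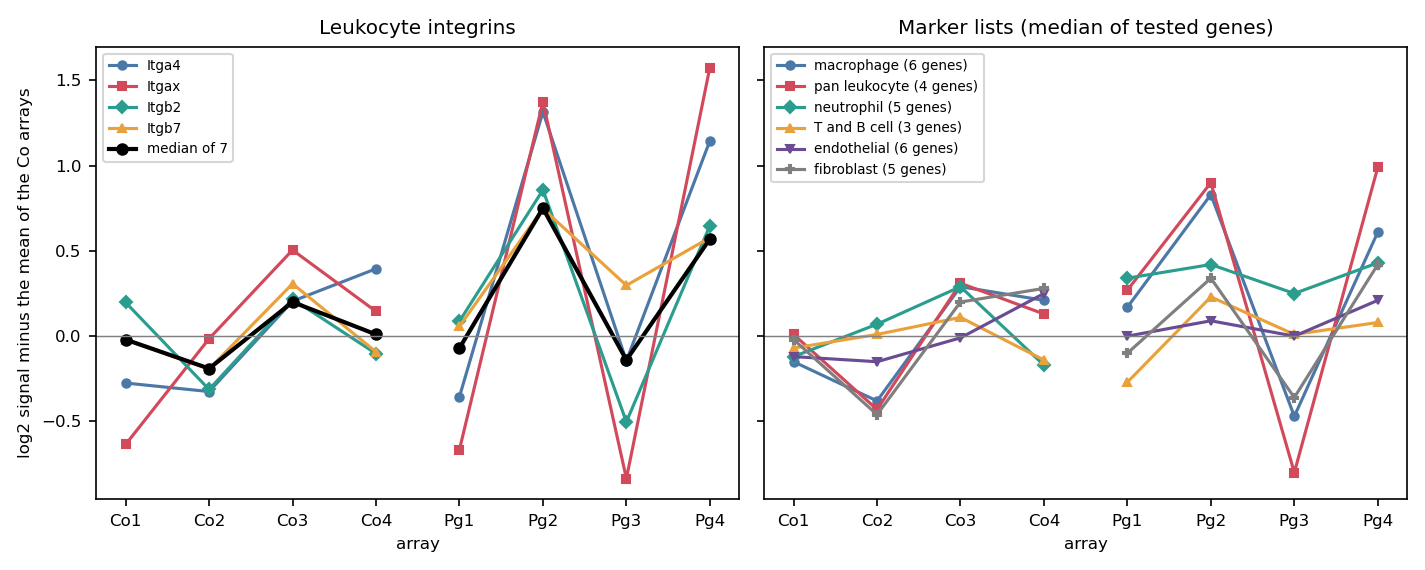
Log2 signal by array minus the mean of the 4 Co arrays, for 4 leukocyte integrins and the median of the 7 tested (left) and for the median of 6 marker lists (right), with lines joining arrays of a group only to guide the eye. Arrays Pg2 and Pg4 stand above 0 and Pg3 below it in the integrin median and in the macrophage, pan-leukocyte and fibroblast medians, while the neutrophil median is above 0 on every Pg array.

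*Itgal* and *Itgam*, the α chains of LFA-1 and Mac-1, gave values that depended on the probe. *Itgal* read 6.33, 6.12, 6.31 and 6.05 in Co mice and 9.43, 6.21, 5.70 and 6.38 in Pg mice. Pg1 alone was high, and the difference of 0.73 ± 0.74 (q = 0.596) was -0.11 without Pg1 and 0.09 for the median signal with no background subtracted. A second *Itgal* probe was high on Pg4 (8.14, other arrays 4.37 to 5.87), while a further probe on nearly the same bases read 4.03 on Pg4 and was well above background on none of the Pg arrays. *Itgam* read 14.47, 14.76, 14.64 and 14.67 in Co mice and 14.57, 14.66, 14.61 and 14.48 in Pg mice on the CA-repeat probe (-0.05 ± 0.08, q = 0.717). Its other probe, at the 5′ end, read 4.88, 5.90, 5.97 and 4.70 in Co mice and 5.14, 4.99, 6.53 and 4.77 in Pg mice, was highest on Pg3 and gave 0.00 ± 0.46 (q = 0.999).

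Ligands of these receptors were examined next, through a list of 16 genes. The list was drawn up with earlier results of these data known, so its counts beside the shares of all genes are no test of ligands as a set. Of the 11 tested, 2 were upregulated in Pg mice, beside 2.05% of all genes, both also DEGs, and none was downregulated, with a median log2 fold change of 0.30. At an unadjusted limma p under 0.05 there were 5 of the 11 (45.5%), all higher in Pg mice, beside 20.3% of all genes. The ligand medians were 0.21, 0.40, 0.18 and 0.39 on Pg1 to Pg4. They were highest on Pg2 and Pg4 and lowest on Pg3, like the macrophage, pan-leukocyte and fibroblast medians. The part of these cells and of endothelial cells in the ligand values was not tested. *Icam2*, an endothelial ligand of LFA-1, read 10.85, 10.95, 11.22 and 11.15 in Co mice and 11.60, 11.78, 11.49 and 11.74 in Pg mice. All Pg arrays were higher (0.61 ± 0.11, 1.52-fold, q = 0.0494). *Icam1*, the inducible ligand of LFA-1 and Mac-1, read 8.21, 8.22, 8.68 and 8.40 in Co mice and 9.44, 9.19, 8.65 and 9.20 in Pg mice, where Pg3 fell inside the Co range (0.74 ± 0.18, 1.67-fold, q = 0.0755). The *Icam2* call was lost under 4 of 17 alternatives, including without Co2 or Co3, and that of *Icam1* under 11 of 17, including 7 of the 8 left-out arrays (kept without Pg3). Ligands of *Itga9* were *Vcam1* (0.31 ± 0.12, q = 0.181), *Spp1* (0.67 ± 0.32, q = 0.263) and *Tnc* (0.14 ± 0.61, q = 0.909), and the fibronectin gene *Fn1* differed by 0.57 ± 0.21 (q = 0.168). *Spp1* read 10.65 on Pg3 and 9.03 to 9.39 on the other Pg arrays. *Tnc* read 6.46 on Pg4 and 3.30 to 4.61 on the other Pg arrays, so a single array weighed heavily in each Pg mean.

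Inside the cell, integrins are linked to actin by talins, kindlins, vinculin and the complex of *Ilk*. None of the 21 adaptor genes tested of 24 passed the test, with a median log2 fold change of 0.01 and values from -0.36 ± 0.12 for the kinase gene *Src* (q = 0.127) to 0.24 ± 0.10 for *Lims1* (q = 0.218). At an unadjusted limma p under 0.05 there were 4 of the 21 (19%), beside 20.3% of all genes. *Fermt3*, the kindlin of blood cells, and *Parvg* were detected on too few arrays to be tested, and *Fermt1* on none.

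Of the 17 genes for other basement membrane proteins and the dystroglycan complex, 15 were tested. *Sgca*, the α-sarcoglycan of the muscle fiber membrane, was downregulated from 14.41, 14.46, 14.37 and 14.33 in Co mice to 14.03, 14.11, 14.13 and 14.00 in Pg mice (-0.32 ± 0.06, 1.25-fold, q = 0.0507). Its groups did not overlap, its call was lost under 5 of 17 alternatives, including without Co2, Co3 or Pg1, and no other gene of the list passed. This was 1 of 15, where 4.18% of all genes were downregulated. Groups did not overlap in 2 of the 15, beside 14.3% of all genes, the other being the β-sarcoglycan gene *Sgcb*, with Pg above (0.17 ± 0.08, q = 0.219). The skeletal muscle markers given with *Itga7* above apply to *Sgca* too, and the part of muscle in its difference was not tested. The laminin receptor gene *Dag1* differed by 0.06 ± 0.06 (q = 0.635), the linker gene *Nid1* by 0.18 ± 0.20 (q = 0.628) and the collagen IV genes *Col4a1* and *Col4a2* by 0.04 ± 0.10 (q = 0.833) and 0.08 ± 0.08 (q = 0.604).

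**Figure D4:**
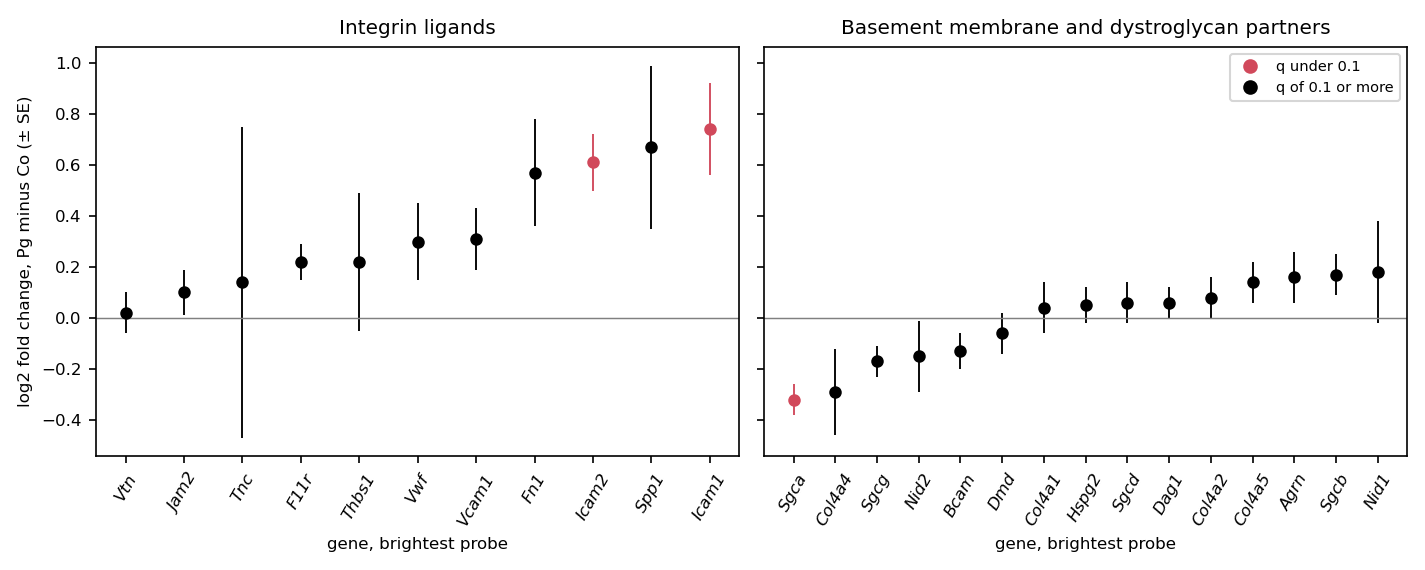
Log2 fold change (Pg minus Co) with its SE, 4 arrays per group, for the tested integrin ligands (left) and for the tested basement membrane and dystroglycan partners (right), in order of size. Red points had a q under 0.1: *Icam2* and *Icam1* among the ligands and *Sgca* among the partners.

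Probes of 1 gene often disagreed, which limits what a single probe per gene can show. Of the 19 subunits with at least 2 tested probes, 11 had fitted log2 fold changes on both sides of 0. Over all 66 tested subunit probes, 3 were upregulated (*Itga9*, *Itga6* and *Lamb1*) and 2 downregulated (*Itga7* and *Itgb6*) in Pg mice, 5 of 66 beside 7.82% of all tested probes (1.82% upward and 6% downward). Groups did not overlap in 9 of the 66, that of *Itga2b* among them, beside 15.8% of all tested probes. The position of a probe on its mRNA moved with the difference, and so did its brightness. In 10 of 13 subunits with several probes on 1 RefSeq mRNA (76.9%), the fold change of the 3′-most probe exceeded that of the 5′-most, with a median gap of 0.15, and the same held for 3260 of 4622 genes of the array (70.5%, median gap 0.12). *Itgb6* had the widest gap with a higher 3′ probe (0.77), and *Lamb1* was the other way round (-0.52). The 3′-most probe was also the brighter one in 12 of the 13 subunits (92.3%) and in 85.8% of those genes, so position and brightness cannot be told apart here, and their part in the calls was not tested.

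**Figure D5:**
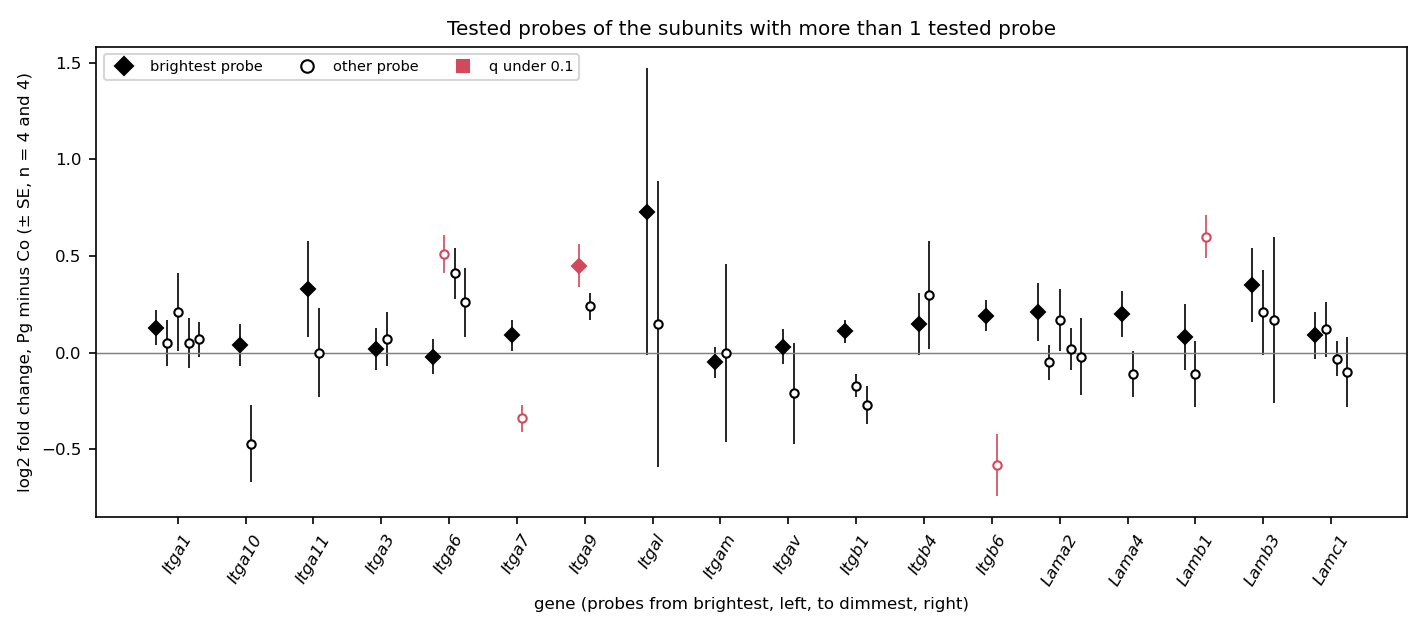
Log2 fold change (Pg minus Co) with its SE, 4 arrays per group, of the tested probes of 18 of the 19 subunits with more than 1 tested probe, apart from a *Lama4* probe that no Pg array had well above background (diamonds, brightest; circles, others; red, q under 0.1). In *Itga7*, *Itga10*, *Itgav*, *Itgb1*, *Itgb6* and *Lama4*, the brightest probe lies above 0 and the others below it.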

How the data were processed

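Cy3 one-color arrays of 8 samples (4 Co, 4 Pg) were analyzed. The authors deposited Feature Extraction 11.0.1.1 output per array, whose spot intensity is background-subtracted and detrended but not normalized between arrays, and a table of quantile-normalized log2 values, used as an alternative. Its columns for the authors' comparison (log2 fold change, moderated t, p-value, adjusted p-value and log odds) were not used. Controls and population outlier spots (90 to 150 per array) were left out of the 59305 spots, spots of a probe were averaged, and the processed intensities were quantile-normalized, set to 1 where lower and turned to log2 with limma 3.58.1 and the data.table package (1.17.8) in R 4.3.3. The 33819 probes with 4 or more arrays well above background were fitted with lmFit and eBayes, Pg minus Co, two-sided, with Benjamini-Hochberg adjustment. The code was tested on simulated data. With 4 arrays per group, whose number limits the precision, an exact permutation test cannot go below p = 0.0286, and where a group has no array well above background only a bound is given as its difference (fitted values of such probes enter counts, medians and probe averages), taken against the lowest signal well above background. The labels do not say how the samples of a group were raised or handled, so p-values measure the spread between these samples, which may be partly technical.

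Values in every array are given for subunits with q under 0.1, for the largest and smallest fold change of each class among those detected on all arrays, and for 16 subunits chosen by name. *Itgax*, *Itgb7* and *Itga2b*, and the dimmer probes with q under 0.1, were given in full after their values were seen. From the lists of ligands, adaptors, partners and cell markers, the genes with q under 0.1 and the largest changes are named, with others named for their role. The subunits and lists were chosen with earlier results of these data known. The own values of 1 tested subunit are not reported here, although it counts in the totals and medians. Gene names are those of the array design, and coordinates are those of the array files (mm9). Coding limits of the transcripts were not used here, so exons and UTRs were not assigned, apart from probes whose coordinates span an intron. Alternatives were other signals, scalings and filters, the authors' normalized values, the methods' t-test, a replicate block, all probes averaged, each array left out, and, added after seeing the data, the brightest RefSeq probe without a CA repeat and, for *Lama4*, the probe average without the probe that gives only a bound.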

Additional observations from a re-analysis of the deposited data

Results flagged for a closer look

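Groups of 4 arrays were screened for an array that stands apart from the other 3 (Dixon's ratio above its 95% critical value) over 74 groups of the tested brightest probes and of the 4 dimmer probes with q under 0.1. Chance gives about 1 in 20 such groups, and 3 of 74 were found. *Itga2b* read 6.47 on Co4, where the other Co arrays read 4.28 to 4.64. The brightest *Itga6* probe read 14.73 on Co1, where the others read 14.46 to 14.49. *Itga1* read 8.34 on Pg3, where the other Pg arrays read 8.45 to 8.47. The *Itgal* value on Pg1 fell just short of the limit.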

How the results depend on the processing

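The count of upregulated subunits at q under 0.1, 1 (*Itga9*) as reported, was 0 without normalization between arrays, without a filter on dim probes, in the authors' normalized values (26 subunits tested, *Itga9* not among them) and with the methods' t-test after Benjamini-Hochberg adjustment (3 higher and 1 lower of 33 at an unadjusted p under 0.05), 3 for the mean signal after normexp (offset 50) and for the median signal with no background subtracted (*Itga9*, *Itgb7* and *Lama5*), and 2 on the brightest RefSeq probe without a CA repeat, an alternative chosen after seeing the data (*Itga6* and *Itga9*). It ran from 0 to 1 when each array was left out, and was 1 only without Pg3. Downregulated subunits and DEGs numbered 0 under all alternatives.

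Same-numbered Co and Pg arrays lay in the same column of the slide, so the replicate block is also a block by column. Deviations of same-numbered samples correlated at only 0.06, -0.03, -0.07 and 0.18, and only numbers 1 and 4 correlated best with their own. With the replicate block the count was 0, and the *Itga9* q was 0.129.

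The median of the matrix integrins was -0.03 in the authors' values and -0.10 with all probes averaged. With each array left out, the medians ran from 0.08 to 0.53 for leukocyte integrins, from 0.06 to 0.10 for matrix integrins and from 0.03 to 0.21 for laminins, the last highest without Pg3. Signs turned, for uncalled subunits, with all probes averaged for *Itga10* (-0.21), *Itga6* (0.29), *Itga7* (-0.13), *Itgav* (-0.09), *Itgb1* (-0.11), *Itgb6* (-0.20) and *Lama4* (-0.24, but 0.05, in an alternative chosen after seeing the data, without a probe well above background on no Pg array), in the authors' values for *Itga10* (-0.03), *Itga6* (0.00) and *Itgb6* (-0.13), with normexp (0.03), the median signal (0.01) and the RefSeq probe (0.51) for *Itga6*, and with scaling to the 75th percentile for *Itgav* (0.00). Leaving out arrays turned the sign within ranges of -0.04 to 0.11 for *Itga10*, -0.06 to 0.09 for *Itga3*, -0.06 to 0.04 for *Itga6*, -0.11 to 1.14 for *Itgal*, -0.03 to 0.07 for *Itgav*, -0.04 to 0.76 for *Itgax*, -0.01 to 0.23 for *Lamb1* and -0.02 to 0.09 for *Lamb2*. Where an alternative did not itself use other probes or fewer arrays, the cause was not tested. Dim signals left 4 of 37 subunits untested.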

Other observations

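Single arrays stood far above the other 7 on several probes. In 10 of the 94 subunit probes (10.6%), the highest array exceeded the next by more than 1 on the log2 scale, beside 10.8% of all probes, and in 5 of the 66 tested ones (7.58%), beside 3% of all tested probes. An *Itgb8* probe read 6.06 on Pg3 and at most 2.15 elsewhere, an *Itgax* probe read 5.67 on Pg2 and at most 2.34 elsewhere, and a dim *Lama4* probe read 6.70 on Co4 and at most 4.71 elsewhere. Another *Itga4* probe was well above background on Pg1 (6.37) and Pg4 (5.74) and on no other array, with at most 2.07 elsewhere.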
